A study of Mus musculus with 4 samples.

Results

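The miRNAs described here are those of the imprinted Dlk1-Dio3 region on mouse chromosome 12. They were chosen by name from a list of 49 miRNA names and counted as arms, the mature products cut from either side of a miRNA hairpin. Of 600 arms with a read in the series, 36 belonged to the list, and they came from 29 of its 49 names. The small RNA libraries came from NIH-3T3 cells, an established line of mouse fibroblasts grown to confluency, with 2 libraries of untreated control cells and 2 of cells given 500 nM thapsigargin for 24 h. Thapsigargin blocks the SERCA calcium pump of the endoplasmic reticulum and brings on endoplasmic reticulum stress. The labels do not say whether replicates were separate cultures, so p-values here reflect the spread among these libraries alone, and that spread may be technical. Control replicate 1 stood apart from the other 3 libraries in where its reads begin, so results that rest on it are also given without it.

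The Dlk1-Dio3 region is expressed from 1 parental chromosome or the other, gene by gene. The protein genes Dlk1, Rtl1 and Dio3 are read from the paternal copy, and the long RNAs Meg3, Rian and Mirg and the miRNAs among them from the maternal copy. In the mouse these miRNAs are known mainly from embryo, placenta and brain, and the maternal RNAs of the region are used as a sign of full potency in mouse stem cells. The miRNAs next to Rtl1, miR-127 among them, lie on the strand opposite to Rtl1 and pair with its transcript.

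The 5 arms with at least 20 reads are shown first, because they held 81.7% of the cluster's 460 reads. The sequences are the mature forms in RefSeq (GRCm38.p6), and capitals mark the seed, bases 2 to 8, which pairs with target RNAs.
miR-127 (miR-127-3p): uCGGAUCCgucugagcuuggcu
miR-411 (miR-411-5p): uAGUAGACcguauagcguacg
miR-410 (miR-410-3p): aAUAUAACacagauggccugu
miR-541 (miR-541-5p): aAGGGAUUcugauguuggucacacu
miR-409-3p (miR-409-3p): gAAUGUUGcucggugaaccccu
No seed was shared among these 5 arms. Outside the list, RefSeq gives the miR-410 seed also to mouse miR-344d-3p and miR-344e-3p, and the miR-411 seed to miR-7229-5p. Over the 93 mature sequences matched to the list, 87 different seeds were found. One shared seed, AUGUAAC, belongs to miR-379-3p and miR-411-3p, which had 3 reads each. The 5 hairpins are on the plus strand in GRCm38.p6, a later build than the mm9 named in the submitters' processing notes. Mir127 lies at chr12:109592846-109592915, opposite an exon of Rtl1. Mir411 lies at chr12:109710175-109710256, in no other annotated gene. Mir541 (chr12:109742409-109742498) and Mir409 (chr12:109743158-109743236) lie in introns of the long RNA Mirg, and Mir410 (chr12:109743715-109743795) overlaps a Mirg exon.

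The cluster was low in these fibroblasts. Control replicate 1 gave 194 of its reads, control replicate 2 gave 76, thapsigargin replicate 2 gave 54 and thapsigargin replicate 1 gave the rest. All reads assigned to 1 arm numbered 3856537 and 3633245 in the 2 control libraries, of which the cluster took 0.00503% and 0.00209%. They numbered 5570614 and 2685920 in the 2 thapsigargin libraries, of which it took 0.00244% and 0.00201%. Control replicate 1 had the highest share, and the other 3 libraries were close together. The fibroblast and mesenchymal marker miRNAs gave between 1954280 and 3680807 reads per library, with 7 of 7 names detected. The embryonic stem cell markers gave 0 to 7 reads per library (3 of 11 names), neural markers 948 to 4378 (4 of 4), blood markers 2 to 6, muscle markers 0 to 2, the liver marker 0 or 1 and epithelial markers 1 to 7. Among these, miR-10b was the most abundant of the fibroblast and mesenchymal markers and miR-9 of the neural ones.

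By level, given as CPM (counts scaled to a common library size) scaled with edgeR's TMM factors, the summed cluster was at 36.0 and 23.2 CPM in untreated cells, against 22.0 and 28.1 CPM after thapsigargin. The means were 29.6 ± 9.0 CPM (SD, n = 2) and 25.1 ± 4.28 CPM (SD, n = 2). The groups overlapped, and the log2 ratio of the means was -0.24. That ratio was 0.11 without control replicate 1, so its direction rested on that library. Fewer cells with a given miRNA and less of it per cell cannot be told apart in bulk samples.

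Reads were concentrated in a few genes. The 5 genes next to Rtl1 (miR-431, miR-433, miR-127, miR-434 and miR-136) gave 192 reads, of which miR-127 alone gave 172. Among names outside that group, the array of 36 names from miR-379 to miR-410 gave 265 reads, from 23 of its names. The 5 names that come before these in chromosome order gave 1 read, of miR-540-3p. The pair in the Rian region gave 2 reads, both of miR-341. miR-882, between Rian and the array, gave 0. Within the array, the reads came mainly from Mir411 near its start and from Mir541, Mir409 and Mir410 at its end.

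**Figure D1:**
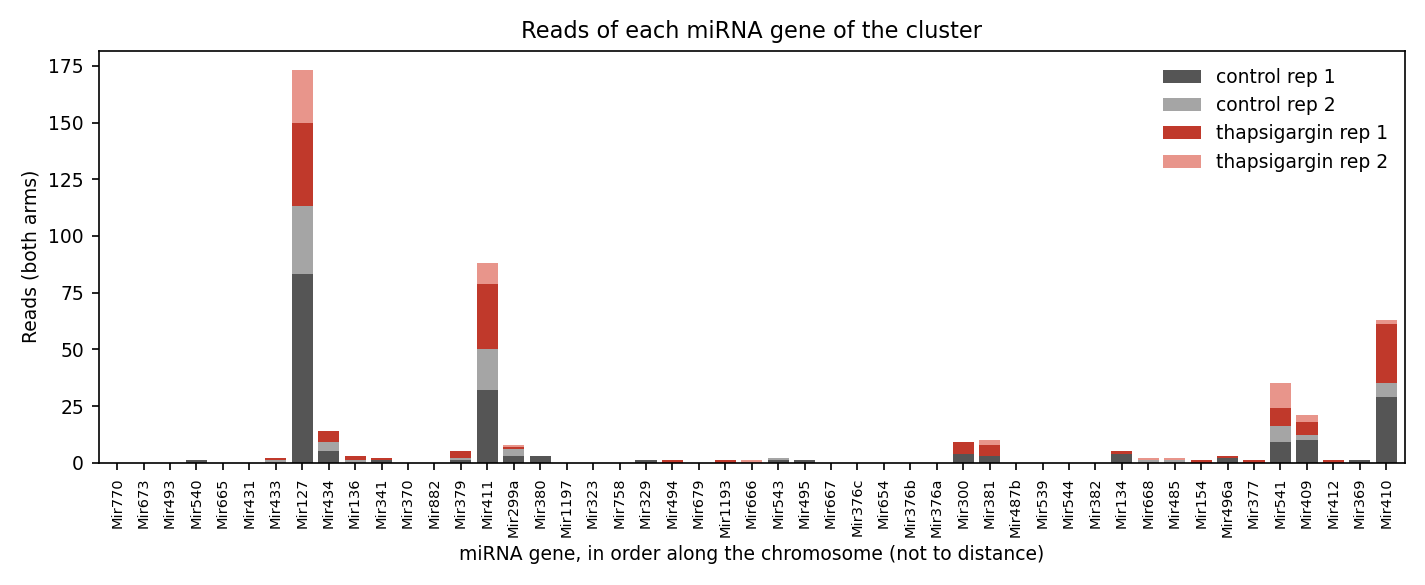
Reads of both arms of each miRNA gene of the cluster, stacked by library (reads, y axis), with genes in order along the chromosome and not to distance. Mir127 with 173 reads, Mir411 with 88 and Mir410 with 63 stand above the other genes, and 20 of the 49 genes have no bar.

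In the mature and star counts, 20 names had no read. They included miR-376a, miR-376b and miR-376c, the neighbours miR-1197, miR-323 and miR-758, and miR-431, miR-370, miR-382, miR-487b and miR-539. The others were miR-493, miR-544, miR-654, miR-665, miR-667, miR-673, miR-679, miR-770 and miR-882. A count of 0 over 15746316 arm reads allows a level of up to 0.191 CPM (without TMM scaling), for counting error only. Ambiguous reads with cluster names alone numbered 0, and 46 reads matched a cluster name together with other miRNAs and were not counted. Of the 36 detected arms, 15 had a single read, 18 were seen in 1 library and 6 in all 4. Detected arms numbered 22 and 15 in the untreated libraries and 22 and 10 in the treated ones, the shallowest library (thapsigargin replicate 2) having the fewest.

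Among the miRNAs next to Rtl1, miR-127, which in the mouse pairs with the Rtl1 transcript, was the most abundant arm of the cluster and ranked 200 of 600 arms by reads. Untreated cells gave 83 and 29 reads of it and treated cells 37 and 23, or 15.4 and 8.86 CPM against 5.99 and 12 CPM. Control replicate 1 was the highest library and thapsigargin replicate 1 the lowest, and the groups overlapped. The log2 fold change was -0.48 (SE 0.64), with an adjusted p of 0.987 in edgeR's quasi-likelihood test. Pooled within each group, the reads gave a ratio of 0.573 with an exact 95% counting interval of 0.412 to 0.792. Pooling gives deeper libraries more weight, and the interval leaves out the spread between libraries, so it is no test of a change. Without control replicate 1 the ratio was 0.836, with a counting interval of 0.528 to 1.35 that includes 1. In the fit without that library the log2 fold change of miR-127 was -0.02. Its neighbour miR-434-3p, from the next gene, had 4 and 2 against 3 and 0 reads, and miR-434-5p had 1 and 2 against 2 and 0. miR-433 and miR-136* had 2 reads each, and miR-136 and miR-127* had 1.

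In the miR-379 to miR-410 array, miR-411 had the most even TMM-scaled level among the arms with at least 20 reads. With 9 to 29 reads per library, counting error is wider than its spread. Untreated cells gave 29 and 18 reads and treated cells 29 and 9, or 5.37 and 5.50 CPM against 4.70 and 4.68 CPM. Both thapsigargin libraries lay below both controls, by a margin that was small beside the counting error. The log2 fold change was -0.21 (SE 0.62), with an adjusted p of 0.987 in edgeR, and the ratio of pooled reads was 0.865 (counting interval 0.549 to 1.36). Without control replicate 1 it was 0.853 (0.475 to 1.59). Groups did not overlap in 34.2% of all tested arms, and in 1 of the 3 tested arms of the cluster.

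For miR-410 the untreated libraries held 29 and 6 reads and the treated ones 26 and 2, or 5.37 and 1.83 CPM against 4.21 and 1.04 CPM. Both libraries numbered 1 were above both numbered 2, so the groups overlapped. The log2 fold change was -0.34 (SE 0.81), with an adjusted p of 0.987 in edgeR. It was 0.67 without control replicate 1 and 0.20 without thapsigargin replicate 2. With the replicate number added to the fit it was -0.45 (SE 0.48), though the labels tie the numbers to nothing shared. miR-541 showed another order, with 9 and 7 reads against 8 and 11, or 1.67 and 2.14 CPM against 1.30 and 5.72 CPM. The highest value was in thapsigargin replicate 2, and the groups overlapped. The ratio of pooled reads was 1.27 (counting interval 0.619 to 2.64), and 1.10 (0.442 to 3.09) without control replicate 1.

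The share of miR-410 in the summed reads of miR-410 and miR-541, a pair chosen after its values were seen and given as a description only, is a ratio within a library and so does not depend on scaling. It was 76.3% (exact 95% interval 59.8 to 88.6) of 38 reads in control replicate 1 and 46.2% (19.2 to 74.9) of 13 reads in control replicate 2. With thapsigargin it was 76.5% (58.8 to 89.3) of 34 reads and 15.4% (1.92 to 45.5) of 13 reads. The share was nearly equal in the libraries numbered 1 of both groups and lower in both libraries numbered 2. miR-409-3p, from a gene between them, had 10 and 2 against 6 and 3 reads, or 1.85 and 0.611 CPM against 0.972 and 1.56 CPM.

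**Figure D2:**
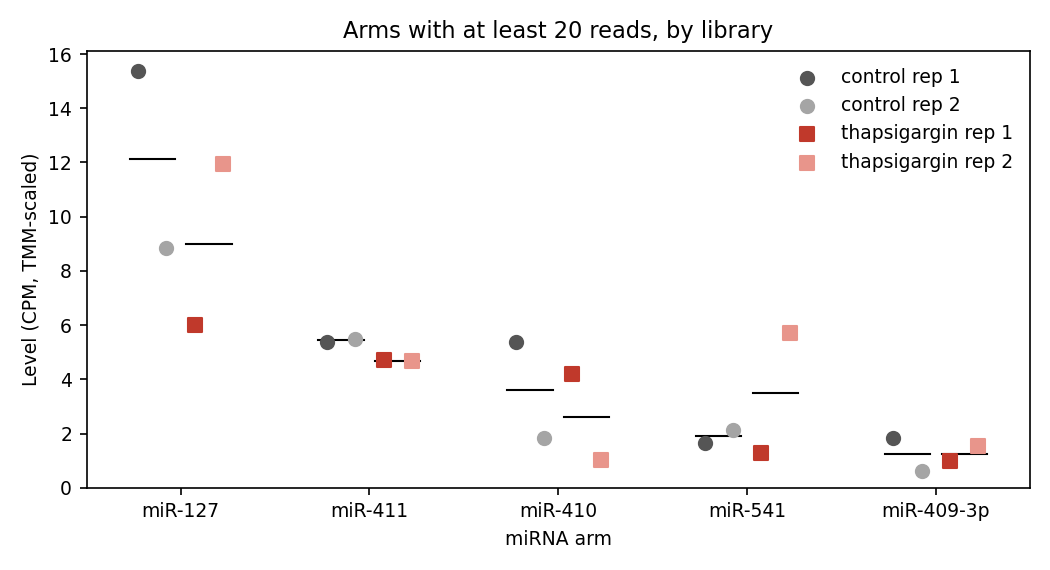
Level of the 5 arms with at least 20 reads (CPM, TMM-scaled, y axis), with a circle for each control library, a square for each thapsigargin library and a black line at each group mean. miR-411 lies between 4.68 and 5.50 CPM in all 4 libraries, while miR-410 spans 1.04 to 5.37 CPM and miR-541 has its highest value, 5.72 CPM, in thapsigargin replicate 2.

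The next arms of the array had between 5 and 10 reads. miR-381 had 3 and 0 reads in untreated and 5 and 2 in treated cells. The ratio of its pooled reads was 2.5, with a counting interval from 0.570 to 15 that spans 1. miR-300, whose sequence is close to that of miR-381, had 4 and 0 against 5 and 0. miR-299 had 2 and 3 against 1 and 1, and miR-134, known in rat neurons for restraining dendritic spines, had 4 and 0 against 1 and 0. The other 25 arms had 1 to 3 reads each over the 4 libraries, which do not allow a comparison.

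The comparison with thapsigargin asks which of these miRNAs differ after depletion of endoplasmic reticulum calcium. The quasi-likelihood test of edgeR, adjusted by the Benjamini-Hochberg method, was run on the whole table, and its filter on low counts kept 307 arms, 3 of them from the cluster (miR-127, miR-411 and miR-410). At an adjusted p of 0.05, 0 of the 3 passed, beside 0 of 307 (0%) over all arms. At an unadjusted p of 0.05 it was 0 of 3, beside 11 of 307 (3.58%), and DESeq2 called 0 of 600 arms with 15 at an unadjusted p of 0.05. The 3 log2 fold changes lay below 0, where 49.8% of all tested arms did. Their median was -0.34, beside 0.0019 over all tested arms. Without control replicate 1 the log2 fold changes were -0.02 for miR-127, -0.22 for miR-411 and 0.67 for miR-410. With no filter, 0 of 36 cluster arms passed in the same test beside 0.5% of 600 arms, and 20 of 36 lay below 0 beside 52% of 600 arms. Of the 36, 25 were arms with too few reads for a comparison. The sign of such an arm records only which libraries held its reads. The smallest unadjusted p of the 36 was 0.2, for miR-379* with 3 reads.

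**Figure D3:**
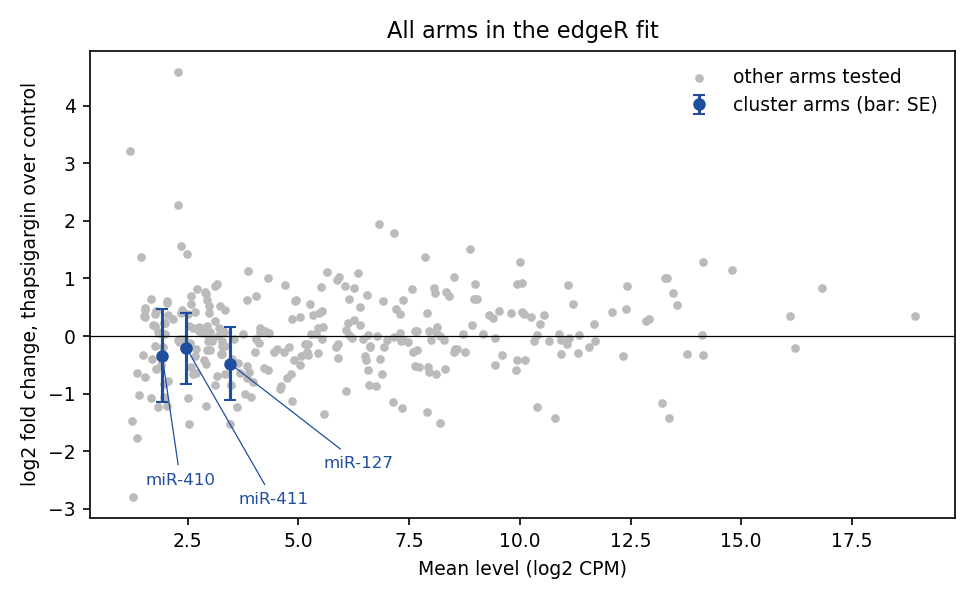
Log2 fold change of thapsigargin over control (y axis) against mean level (log2 CPM, x axis) for the 307 arms in the edgeR fit, with the 3 cluster arms in blue and bars of 1 standard error. The cluster arms sit at the low end of the level axis, and their bars cross 0.

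The authors' deposited table lists 11 cluster arms, 8 with a log2 fold change below 0 and 3 above it. The smallest unadjusted p of these arms in the authors' deposited table was 0.194, for miR-381 at a log2 fold change of 1.35, and the adjusted p was 1 for each of the 11. For miR-127 the authors' deposited table gives a log2 fold change of -0.59.

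By region of the cluster, the summed arms next to Rtl1 were at 16.3 and 11.0 CPM in untreated cells, against 7.29 and 12 CPM after thapsigargin. The summed array was at 19.3 and 12.2 CPM against 14.6 and 16.1 CPM. Both pairs of groups overlapped, with log2 ratios of the means of -0.50 and -0.04, and their difference was not tested. Without control replicate 1 the ratios were -0.19 next to Rtl1 and 0.33 for the array, so the direction for the array rested on that library. Without miR-127, the mean sum of the cluster was 17.5 ± 4.39 CPM (SD, n = 2) in untreated cells, against 16.1 ± 0.0605 CPM (SD, n = 2) after thapsigargin. Their log2 ratio was -0.12, and 0.17 without control replicate 1. The SD of 0.0605 CPM lies below the counting error of so few reads, so it is no measure of precision.

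Imprinted miRNAs of other chromosomes served as a comparison list of 5 names (miR-296, miR-298, miR-335, miR-483 and miR-675), of which 3 had reads. miR-298 was at 894 and 726 CPM in untreated cells, against 446 and 704 CPM after thapsigargin, so this single arm was above the whole Dlk1-Dio3 cluster in each library. Its log2 fold change was -0.49 (SE 0.47), with an adjusted p of 0.987 in edgeR. The other tested arms of the list were miR-296-3p at -0.60 (SE 0.66), miR-296-5p at 0.30 (SE 0.93) and miR-483* at 0.17 (SE 1.43), and 0 of the 4 passed. miR-483* had 51 and 0 reads in untreated cells against 59 and 1 in treated cells, so nearly all of its reads were in the libraries numbered 1.

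Most reads came from 1 arm of each hairpin. Of 173 miR-127 hairpin reads, 99.4% were the 3p arm (exact 95% interval 96.8 to 99.99), and of 88 miR-411 reads 96.6% were the 5p arm (90.4 to 99.3). miR-410 gave 63 reads of its 3p arm and 0 of its 5p arm, and miR-541 gave 35 of its 5p arm and 0 of its 3p arm. miR-409 gave 21 reads of its 3p arm and 0 of the other. miR-434 was shared more evenly, with 64.3% of 14 reads from the 3p arm (35.1 to 87.2). miR-379 had 2 reads of its 5p arm and 3 of its 3p arm, the latter all in thapsigargin replicate 1. Both arms were seen for 7 names, and 11 cluster reads in all came from arms that the files name with a star.

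Where reads began differed between control replicate 1 and the rest. Over the 5 arms with at least 20 reads, 99.4% of 160 reads began at base 1 of the RefSeq mature sequence in control replicate 1. In control replicate 2 it was 12.9% of 62 reads, and with thapsigargin 9.43% of 106 and 4.17% of 48. The other reads in those 3 libraries began at base 2, apart from 1 read of thapsigargin replicate 1. The commonest reads show this, and the capital marks base 1 where it is present.
miR-127 from base 1: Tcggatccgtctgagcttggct
miR-127 from base 2: cggatccgtctgagcttggct
miR-411 from base 1: Tagtagaccgtatagcgtacg
miR-411 from base 2: agtagaccgtatagcgtacg
The first form of miR-127 had 38 reads in control replicate 1 and 0 in the other 3 libraries. The second had 0 there and 18, 14 and 14 in the others. Outside the cluster, 88.2% of placed reads began at base 1 in control replicate 1, against 0.293%, 0.272% and 0.192% in the other libraries, so the cluster arms follow a difference that runs through the whole library. The cause of this difference was not tested. With the first base taken off the control replicate 1 reads, the log2 fold changes were -0.47 for miR-127, -0.32 for miR-410 and -0.27 for miR-411.

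miR-411 kept more reads with base 1 than most arms did. It had 6 of 18 such reads in control replicate 2 (33.3%), 8 of 29 in thapsigargin replicate 1 (27.6%) and 1 of 9 in thapsigargin replicate 2 (11.1%). The median over arms outside the cluster with at least 18 placed reads was 0% in each of these libraries. A share as high as that of miR-411 was reached by 9 of 198, 13 of 223 and 12 of 167 of those arms. miR-411 was picked for this comparison after its values were seen. Its 9 reads in thapsigargin replicate 2 fall short of the 18 asked of the other arms. miR-409-3p had 2 of 2, 2 of 6 and 0 of 3 reads from base 1 in the same libraries. miR-127 had 0 of 29, 0 of 37 and 1 of 23, while miR-410 and miR-541 had no read from base 1 there. Since the start of reads differs by library over arms in general, whether forms without base 1 exist in the cells was not tested. A read that lacks base 1 has the bases 3 to 9 of the mature form in the seed position. For the 5 arms these are GGAUCCG (miR-127), GUAGACC (miR-411), UAUAACA (miR-410), GGGAUUC (miR-541) and AUGUUGC (miR-409-3p), and 0 mouse mature sequences in the RefSeq table have any of them as their own seed.

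**Figure D4:**
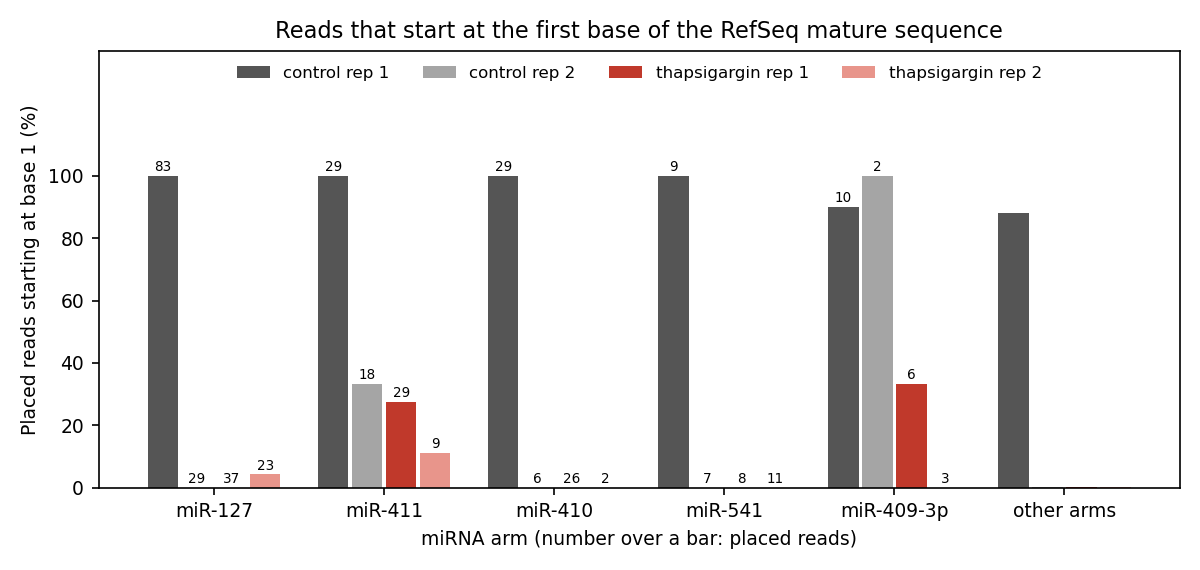
Percent of placed reads that start at base 1 of the RefSeq mature sequence (y axis), by arm and library, with the number of placed reads above each bar for the cluster arms. Control replicate 1 is at 90% or more for the 5 cluster arms, and miR-411 lies between 11.1% and 33.3% in the other 3 libraries, where miR-410 and miR-541 are at 0%.

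Reads were compared with the hairpins over their first 17 bases, and 458 of 460 could be placed with at most 1 mismatch. The others, of miR-666-3p and miR-485, lacked a RefSeq hairpin or a mature sequence of their arm to be placed on. Mismatches were found in 9 reads. One substitution was seen in more than 1 library, A5G in miR-411, with positions counted from 1 at the 5′ end of the mature form. It was carried by 2 and 0 reads in the untreated libraries and by 1 and 1 in the treated ones, or 4.71% of 85 reads (exact 95% interval 1.30 to 11.6). The other 5 substitutions were in 1 read each. The reads are shown with the changed base in capitals, which falls in the seed.
miR-411 with A5G, from base 1: tagtGgaccgtatagcgtacg
miR-411 with A5G, from base 2: agtGgaccgtatagcgtacg
The substitution occurred in both start forms and in libraries of both groups, and the reads are too few to compare groups. An A-to-G change is how A-to-I editing by ADAR enzymes appears in sequencing, and miR-411 is known from other tissues to be edited in its seed. Whether that is the source here was not tested.

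Reads on the hairpins outside the annotated arms were few. For the cluster, untreated libraries held 10 and 4 of them and treated libraries 3 and 0. Of these, mir-411 had 5, 1, 1 and 0 and mir-409 had 4 in control replicate 1. Though none of their arms was counted, mir-370 had 1 in control replicate 2 and mir-544 had 1 in thapsigargin replicate 1. The predicted star of mir-382 had 1 read in each control. Neighbouring miRNA genes between Dlk1 and Dio3 that the list does not name added 1 read each of miR-337-5p and miR-3072.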

How the data were processed

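Small RNA of 4 NIH-3T3 samples was made into libraries with a TruSeq small RNA kit, per the labels' protocols. The submitters' processing notes list CASAVA 1.8.1, cutadapt, Bowtie, DESeq 1.4.1 and the mouse build mm9. Trimming settings were not stated in those notes as given here. The authors deposited raw counts, 1 per distinct read in the read tables and 1 per miRNA in the summaries. The deposited summaries add a percent column, relative to the reads that entered the count. Log2 fold changes with p-values make up the authors' deposited comparison. Reads matching 1 miRNA were summed here by name over the mature and star tables. The mature summary of thapsigargin replicate 2 matched its read table in 0 of 50 cluster names and entered no comparison. In the other libraries every cluster name matched.

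Tests used edgeR 4.0.16 in R 4.3.3, with the two-sided quasi-likelihood test, TMM scaling (factors 1.40, 0.901, 1.11 and 0.716), robust fitting and filterByExpr (minimum count 10), over all arms. DESeq2 1.42.0 was an alternative. Standard errors are the fold change divided by the root of F. Ratios and shares of low counts have exact (Clopper-Pearson) 95% intervals, which cover counting error only, as do limits from 3 counts. Cluster reads were placed on RefSeq hairpins with at most 1 mismatch in 17 bases, and other arms by an exact match of their first bases. RefSeq mature sequences were matched for 49 of 49 names, and hairpins for 47 (all but miR-544 and miR-666).

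The text names every cluster arm in the fit, arms with at least 20 reads in full, and those with at least 5 by name. miR-379*, the arms with fewer reads, the pairing of miR-410 with miR-541 and the read starts of miR-411 were named after their values were seen. Members and lists were chosen with earlier results of these data known. Alternatives were other scalings, filters and tools, ambiguous reads, shortened reads, a replicate block and each library left out. Since 0 ambiguous reads matched cluster names alone, adding ambiguous reads bore on the rest of the counts and on the scaling.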

Additional observations from a re-analysis of the deposited data

Results flagged for a closer look

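The mature summary table deposited for thapsigargin replicate 2, which no comparison uses, gave the cluster 11149 reads over 50 names, or 3.04% of its 367170 reads. The read table of the same sample gave the cluster 54 mature reads, or 0.00203%. The summary was picked out because its cluster count, outside the comparisons, exceeds those of the control libraries, at 194 and 76 reads. Those are mature and star reads out of 3856537 and 3633245 arm reads, so the counts are not like for like. Of the 50 names, 0 had the same count in both tables, so the summary cannot be taken as a measurement of this sample, and which library it describes is not known here. miR-127 had 6255 reads there against 23 in the read table, miR-541 1608 against 11, miR-410 1108 against 2, miR-409-3p 342 against 3 and miR-411 319 against 9. Names with no read in the read tables had reads there, among them miR-758 with 123, miR-431 with 107, miR-673-5p with 80, miR-323-3p with 51 and miR-376b with 19.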

How the results depend on the processing

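The cluster had 0 arms at an adjusted p of 0.05 under all 13 alternative fits. The log2 ratio of the summed cluster was -0.24, and -0.68 when scaled by library totals, where the median of all tested arms was -0.36 in place of 0.0019. Leaving out 1 library gave -0.57 to 0.11. miR-127 and miR-411 stayed below 0 in all 13 fits, at -1.01 to -0.02 and -0.52 to -0.20. The -0.02 of miR-127 came without control replicate 1, so the size of its fold change rested largely on that library. For miR-410 leaving out 1 library gave -1.84 to 0.67, with values above 0 without control replicate 1 (0.67) and thapsigargin replicate 2 (0.20). The number of cluster arms tested was 3. With no filter and in DESeq2 it was 36, most with too few reads to compare, and 20 and 22 lay below 0. It was 5 with the filter of 5 reads in 2 libraries, and 4 to 5 with each library left out, of which 2 to 4 lay below 0. More or fewer arms passed these filters by construction. Over all arms, 0 were called, 3 with no filter (miR-216a*, miR-217 and miR-671-5p) and 0 to 1 with each library left out, the 1 being miR-671-5p without control replicate 2. These were named after their values were seen. Of the 36 detected arms, 11 had at least 5 reads. With the replicate block 0 arms were called, and the log2 fold changes were -0.55 for miR-127, -0.45 for miR-410 and -0.21 for miR-411. Deviations of same-numbered libraries correlated at 0.56 over 307 arms, a hint from the data only, since the labels tie the numbers to nothing shared. Leaving miR-127 out of the sum gave -0.12. After seeing the data, neighbouring genes were added (-0.24) and log2 levels of the 5 main arms averaged (-0.11), and the sums by gene group were also taken without control replicate 1. At these depths and with 2 libraries per group, smaller differences in arms of a few reads were not detectable. Abundant arms were not called either, with 0 of 307 called in the main fit.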
